A study of Caenorhabditis elegans with 12 samples.

Results

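Animals carrying the lin-40(yth27) mutation and wild-type (WT) animals were compared for how their RNA levels responded to cco-1 RNAi. The measure described here is the difference in response, which is the log2 change upon cco-1 RNAi in lin-40(yth27) minus the same change in WT. A positive value means that the level upon cco-1 RNAi, relative to empty vector (EV), was higher in lin-40(yth27) than in WT. All 12 libraries of the series, of 12 in all, enter this comparison, with 3 libraries in each of 4 groups. The groups were lin-40(yth27) upon cco-1 RNAi, lin-40(yth27) on EV, WT upon cco-1 RNAi and WT on EV, where WT is the strain N2. Whole animals were collected at the L4 larval stage after feeding on their bacteria since hatching, and the EV bacteria are the control for the RNAi bacteria. lin-40(yth27) is 1 allele with a point mutation, found in a genetic screen, so no other allele bears on its values. The study's methods call its data biological replicates in general. The labels do not say whether libraries of a group came from separate cultures, and where they did not, the p-values measure only a technical spread.

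cco-1, listed as cox-5B, is a complex IV gene of the mitochondrial electron transport chain, and its knockdown during larval growth is a standard mitochondrial stress in C. elegans. Stressed mitochondria signal to the nucleus through the mitochondrial unfolded protein response (UPRmt), in which transcription factors such as ATFS-1 and DVE-1 raise chaperones and proteases of the mitochondrion. LIN-40 is the MTA subunit of the nucleosome remodeling and deacetylase (NuRD) complex, which joins a chromatin remodeler of the Mi-2 type to a histone deacetylase and is known mainly for holding chromatin in a closed state. The comparison asks which transcripts respond to the stress differently when a NuRD subunit is altered, and whether the genotypes already differ on EV or come to differ on cco-1 RNAi.

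The libraries held 18553449 to 22538076 counts each, and 14867 genes had enough counts to be tested. cox-5B had 177, 224 and 257 CPM (counts scaled to a common library size by TMM) in lin-40(yth27) upon cco-1 RNAi and 413, 425 and 409 CPM in lin-40(yth27) on EV, against 143, 144 and 193 CPM in WT upon cco-1 RNAi and 517, 474 and 492 CPM in WT on EV. The targeted transcript thus fell in both genotypes, by 0.92 on the log2 scale in lin-40(yth27) (edgeR adjusted p = 0.0187) and by 1.63 in WT (edgeR adjusted p = 0.000376), with a difference in response of 0.70 ± 0.22 (SE, unadjusted p = 0.00768). The call in lin-40(yth27) was lost when any library of that genotype on EV was left out, and likewise for its replicate 1 or 2 on cco-1 RNAi, with adjusted p up to 0.0991. On cco-1 RNAi the cox-5B level was 0.455 higher in lin-40(yth27) than in WT (edgeR adjusted p = 0.218), and the groups overlapped. The part of the smaller cox-5B fall in the differences in response of other genes was not tested. lin-40 itself had 99.4 to 146 CPM in lin-40(yth27) upon cco-1 RNAi, 100 to 133 CPM in lin-40(yth27) on EV, 116 to 133 CPM in WT upon cco-1 RNAi and 94.2 to 148.5 CPM in WT on EV, and since the allele is a point mutation this level does not check the genotype. Markers of intestine, muscle, neurons, hypodermis and germline were present in every group, and no marker was at 0 in all libraries. The WT libraries with title number 1 had the lowest summed sperm markers (112 CPM on cco-1 RNAi and 109 CPM on EV) and oocyte markers (554 and 521 CPM). In whole animals, fewer cells of a type and less RNA per cell cannot be told apart.

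No single gene passed the adjusted threshold for the difference in response. edgeR's quasi-likelihood test called 0 of the 14867 genes (0%) at an adjusted p under 0.05, and the lowest adjusted p was 0.388. At an unadjusted p under 0.05, 1017 genes (6.84%) had a positive difference in response and 671 genes (4.51%) a negative one. This split depends on the scaling. Scaling by library totals instead moved the difference over all genes to -0.31, against -0.04 with TMM (values on the log2 scale), and 204 genes were then positive and 1309 negative. Of the single libraries, leaving out replicate 1 of lin-40(yth27) upon cco-1 RNAi gave 1670 positive and 1105 negative genes, and leaving out replicate 3 of the same group gave 575 and 440. Without WT cco-1 replicate 2 the positive genes numbered 659, and without WT cco-1 replicate 1 the negative genes numbered 1215.

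Other models called some genes. DESeq2 called 58 of 13417 genes (0.432%), 42 of them positive and 16 negative, with a lowest adjusted p of 0.00545. In WT, cco-1 and EV libraries with the same replicate number deviated together, and a model with that number as a block within WT called 7 of 14867 genes (0.0471%). limma's voom with quality weights called 256 genes. The 30 leading genes, the 15 positive and the 15 negative ones with the lowest edgeR p among genes that reached a group mean of 5 CPM, kept their sign in 684 of 684 values under alternative settings, of which 84 passed an adjusted threshold. They were picked by p in the same libraries that the alternatives reuse. Their kept signs, and their calls by other models, are thus not separate support. DESeq2 called 15 of the 15 leading positive genes and 10 of the 15 leading negative genes. A block by the number in the libraries' short names called 1023, among them 15 of the leading positive and 14 of the leading negative genes, but left 3 residual degrees of freedom, and of the pairs it forms in lin-40(yth27) 1 deviated together (correlation 0.29) and 1 did not (-0.113).

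Among genes with an unadjusted p under 0.05 for the difference, few had a larger response of the same sign in lin-40(yth27). In the same edgeR model, 173 genes changed upon cco-1 RNAi in lin-40(yth27) (1.16% of those tested) and 929 in WT (6.25%). Of the 1017 positive genes, 971 had a WT response below 0, and in lin-40(yth27) 633 of the 1017 had a response of the opposite sign, 338 a smaller one of the same sign and 46 a larger one. Of the 671 negative genes, 664 had a WT response above 0, with 580 responses of opposite sign in lin-40(yth27), 84 smaller and 7 larger. Over all genes tested, 48.3% had responses of opposite sign, 31.1% a smaller and 20.6% a larger response in lin-40(yth27). Since the WT response is 1 of the terms of the difference, these counts describe its make-up and test nothing.

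The same difference can be written as the genotype difference (lin-40(yth27) minus WT) on cco-1 RNAi minus that on EV, which says where it arose. A gene was placed on 1 kind of bacteria where the genotype difference there was at least 2 times that on the other, and on both otherwise. Of the 1688 genes with an unadjusted p under 0.05, 437 (25.9%) lay on cco-1 RNAi, 487 (28.9%) on EV and 764 (45.3%) on both. All genes tested gave 30.7%, 27.4% and 42%, so the shares stood near those of the background. In 757 of the 764 genes on both, the genotype differences on EV and cco-1 RNAi had opposite signs. Over all genes tested, 2974 of the 6238 on both did. Differences of the same sign and like size largely cancel, so the pick by p favours opposite signs and this count tests nothing. Positive genes lay on cco-1 RNAi in 299 cases, on EV in 286 and on both in 432. Negative genes lay on cco-1 RNAi in 138 cases, on EV in 201 and on both in 332. Single libraries moved these shares: without WT EV replicate 2 EV took 42.3% and cco-1 RNAi 17.2%, while EV took 15.2% and cco-1 RNAi 44.4% once replicate 1 of lin-40(yth27) cco-1 was left out. As tests of their own, the genotype difference passed for 93 genes on cco-1 RNAi (0.626%) and for 56 genes on EV (0.377%).

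**Figure D1:**
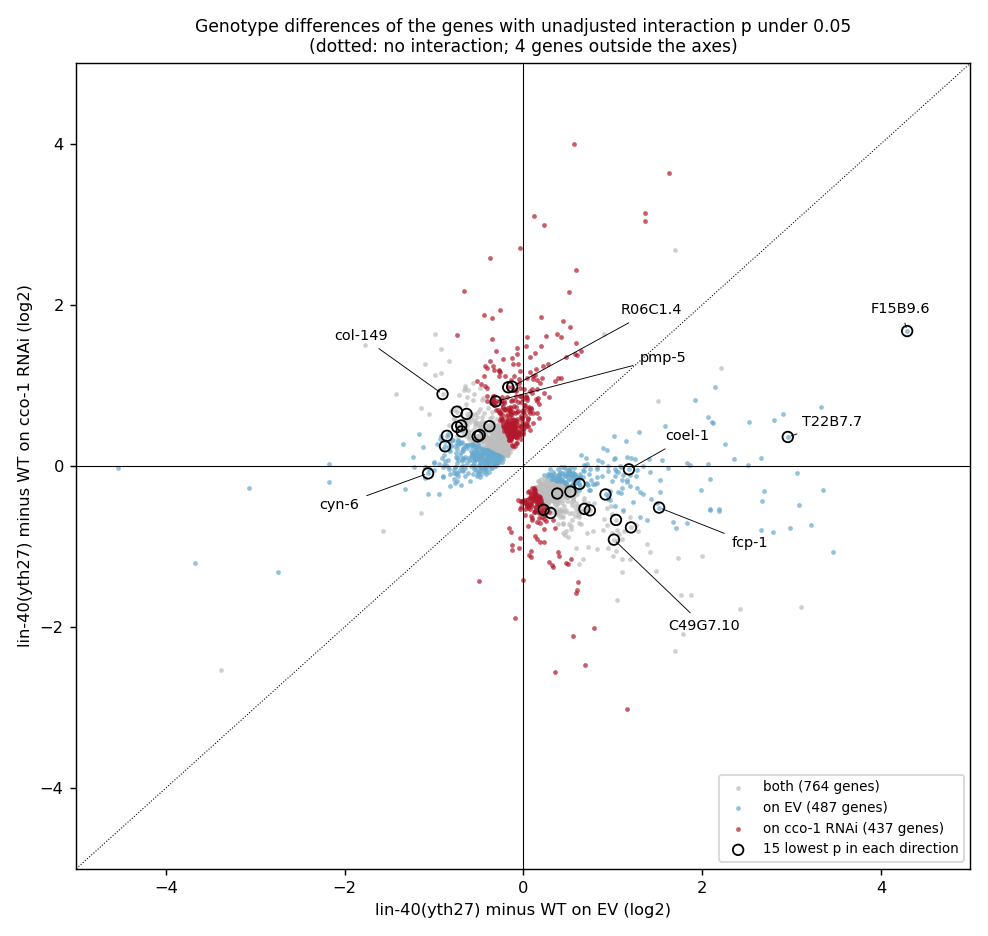
Genotype difference (lin-40(yth27) minus WT, log2) on EV, along the horizontal axis, and on cco-1 RNAi, along the vertical axis, for the 1688 genes with an unadjusted p under 0.05 for the difference in response. Each point is a gene and the colour says where its difference was placed. Most points lie where the genotype differences have opposite signs, which the choice of genes by p favours. The axes end at 5, and 4 genes lie outside them.

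Among the 15 leading positive genes, the difference in response ran between 0.87 and 1.80 on the log2 scale, with unadjusted p between 0.000183 and 0.000738. The group holds a transporter of amino acids, an ABC transporter, a nuclear hormone receptor, a repair enzyme of oxidized methionine, and collagens and matrix proteins of the cuticle. In all 15 the WT libraries on cco-1 RNAi lay below every WT library on EV, and the WT response passed edgeR's adjusted threshold in 14 of them. In lin-40(yth27) the response was called in 2 of the 15. Against WT, the 3 lin-40(yth27) libraries on EV lay below all 3 WT libraries in 13 of the 15 genes and overlapped them in 2. On cco-1 RNAi the 3 lin-40(yth27) libraries lay above those of WT in 8 genes and overlapped them in 7. By placement, 3 of the 15 lay on cco-1 RNAi, 3 on EV and 9 on both. Over all genes tested, the response was called in 6.25% in WT and 1.16% in lin-40(yth27). The responses and genotype differences make up the difference by which the 15 were picked, so these counts describe the pick and test nothing. No share of separated libraries over all genes is given here.

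R06C1.4 (WBGene00011059, chromosome I, 11930765 to 11931757 in WBcel235) had the lowest p of the positive genes. It had 322, 365 and 478 CPM in lin-40(yth27) upon cco-1 RNAi and 353, 403 and 402 CPM in lin-40(yth27) on EV, against 183, 197 and 210 CPM in WT upon cco-1 RNAi and 395, 428 and 441 CPM in WT on EV. The WT libraries on cco-1 RNAi lay below all others, and the 2 groups on EV overlapped. It fell by 1.10 on the log2 scale in WT (edgeR adjusted p = 0.00201), while the change in lin-40(yth27) was 0.01 (edgeR adjusted p = 0.989). The difference in response of 1.11 ± 0.21 (SE) lay on cco-1 RNAi, where lin-40(yth27) stood 0.98 above WT (edgeR adjusted p = 0.0199) against -0.13 on EV (edgeR adjusted p = 0.733).

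pmp-5 (WBGene00004062, chromosome V, 6662191 to 6665813), an ABC transporter of the peroxisomal type, fell in both genotypes. Its libraries gave 80.7, 85.5 and 110 CPM in lin-40(yth27) upon cco-1 RNAi and 183, 219 and 222 CPM in lin-40(yth27) on EV, against 61.4, 51.6 and 45.4 CPM in WT upon cco-1 RNAi and 243, 283 and 248 CPM in WT on EV. The genotypes did not overlap on either kind of bacteria, with lin-40(yth27) higher on cco-1 RNAi and lower on EV. It fell by 1.18 in lin-40(yth27) (edgeR adjusted p = 0.00578) and by 2.29 in WT (edgeR adjusted p = 7.25e-05), a difference in response of 1.11 ± 0.22. The genotype difference was 0.80 on cco-1 RNAi (edgeR adjusted p = 0.046) and -0.31 on EV (edgeR adjusted p = 0.367). msra-1 (WBGene00018393, chromosome II, 7363220 to 7364040), a methionine sulfoxide reductase, gave 86.9, 96.2 and 107 CPM in lin-40(yth27) upon cco-1 RNAi and 90.0, 129 and 121 CPM in lin-40(yth27) on EV, against 52.1, 47.5 and 47.8 CPM in WT upon cco-1 RNAi and 111, 157 and 114 CPM in WT on EV. Its lin-40(yth27) libraries overlapped between the kinds of bacteria, and its WT libraries on cco-1 RNAi were the lowest of all. It fell by 1.37 in WT (edgeR adjusted p = 0.00136), with -0.23 in lin-40(yth27) (edgeR adjusted p = 0.655) and a difference in response of 1.15 ± 0.24. On cco-1 RNAi lin-40(yth27) stood 0.98 above WT (edgeR adjusted p = 0.0366).

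These genotype calls on cco-1 RNAi depended on single libraries. With each of the 12 libraries left out in turn, the sign held in 12 of 12 fits for all 3 genes, while R06C1.4 passed in 9 fits and failed when replicate 2 of lin-40(yth27) upon cco-1 RNAi, or WT cco-1 replicate 2 or 3, was left out, with adjusted p up to 0.0981. msra-1 passed in 5 fits, and its highest adjusted p was 0.16 without replicate 3 of lin-40(yth27) cco-1. pmp-5 passed only without replicate 1 of either genotype on cco-1 RNAi, and its highest adjusted p was 0.205 without replicate 3 of lin-40(yth27) cco-1. nhr-68, a nuclear hormone receptor outside the leading 15, also fell in both genotypes. It stood 0.72 above WT upon cco-1 RNAi (edgeR adjusted p = 0.0214, up to 0.0981 without WT cco-1 replicate 2) and 0.06 on EV. It fell by 0.55 in lin-40(yth27) (edgeR adjusted p = 0.0362, passing in 3 of 12 fits) and by 1.21 in WT (edgeR adjusted p = 0.000214), a difference in response of 0.67 ± 0.15.

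The nuclear hormone receptor nhr-114 and the amino acid transporter aat-1 differed on both kinds of bacteria, with opposite signs. nhr-114 (WBGene00003704, chromosome V, 4187202 to 4190008) had 48.0, 42.1 and 44.4 CPM in lin-40(yth27) upon cco-1 RNAi and 66.5, 76.9 and 84.2 CPM in lin-40(yth27) on EV, against 30.3, 36.3 and 29.0 CPM in WT upon cco-1 RNAi and 94.8, 107 and 95 CPM in WT on EV. No groups overlapped, and the lin-40(yth27) levels lay between those of WT. It fell by 0.76 in lin-40(yth27) (edgeR adjusted p = 0.0187, and up to 0.108 without lin-40(yth27) EV replicate 3) and by 1.63 in WT (edgeR adjusted p = 0.000127), a difference in response of 0.87 ± 0.18. That call in lin-40(yth27) was also lost without EV replicate 2 or any lin-40(yth27) cco-1 library. aat-1 (WBGene00000002, chromosome IV, 9599178 to 9601695) had 13, 13.9 and 13.4 CPM in lin-40(yth27) upon cco-1 RNAi and 14.6, 16.07 and 17.7 CPM in lin-40(yth27) on EV, against 10.4, 9.72 and 11.1 CPM in WT upon cco-1 RNAi and 23.2, 23.7 and 22.1 CPM in WT on EV. Its lin-40(yth27) libraries again lay between the WT groups, and it fell by 1.14 in WT (edgeR adjusted p = 0.000424). With -0.26 in lin-40(yth27) (edgeR adjusted p = 0.394), the difference in response was 0.88 ± 0.16. The genotype differences were 0.37 on cco-1 RNAi and -0.51 on EV, and neither passed (edgeR adjusted p = 0.196 and 0.0853).

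Genes of the cuticle and its apical matrix made up another share of the leading positive genes. They were dpy-2 and dpy-3, which code for collagens of the cuticle furrows, col-149, another cuticle collagen, noah-2, a matrix protein of the zona pellucida type, and lpr-6, a lipocalin-related protein. col-149 (WBGene00000722) had the largest difference of the 15, 1.80 ± 0.39. It gave 162, 273 and 324 CPM in lin-40(yth27) upon cco-1 RNAi and 326, 359 and 306 CPM in lin-40(yth27) on EV, against 116, 109 and 184 CPM in WT upon cco-1 RNAi and 654, 446 and 756 CPM in WT on EV. WT on EV was the highest group and WT upon cco-1 RNAi overlapped only the lowest lin-40(yth27) library on cco-1 RNAi. It fell by 2.18 in WT (edgeR adjusted p = 0.00193), and the value in lin-40(yth27) was -0.39 (edgeR adjusted p = 0.647). dpy-3 and dpy-2 fell by 1.15 and 1.3 in WT (edgeR adjusted p = 0.00557 and 0.00272), with 0.13 and -0.08 in lin-40(yth27) and differences in response of 1.28 ± 0.27 and 1.22 ± 0.26.

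noah-2, lpr-6 and the cyclophilin cyn-6 were the leading positive genes whose difference lay on EV. cyn-6 (WBGene00000882, chromosome III, 773414 to 774159) had 127, 118 and 124 CPM in lin-40(yth27) upon cco-1 RNAi and 119, 138 and 128 CPM in lin-40(yth27) on EV, against 111, 121 and 162 CPM in WT upon cco-1 RNAi and 256, 245 and 304 CPM in WT on EV. WT on EV stood apart from the other 3 groups, which overlapped. It fell by 1.03 in WT (edgeR adjusted p = 0.00297), with -0.06 in lin-40(yth27) (edgeR adjusted p = 0.92) and a difference in response of 0.97 ± 0.21. Its genotype difference on EV was -1.07 (edgeR adjusted p = 0.0169), a call lost when any lin-40(yth27) library on EV or WT EV replicate 3 was left out (adjusted p up to 0.119). The genotype difference on cco-1 RNAi was -0.09 (edgeR adjusted p = 0.783).

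lpr-6 (WBGene00012255, chromosome X, 11059994 to 11061871) gave 118, 129 and 121 CPM in lin-40(yth27) upon cco-1 RNAi and 138, 156 and 149 CPM in lin-40(yth27) on EV, against 97.1, 89 and 124 CPM in WT upon cco-1 RNAi and 292, 212 and 311 CPM in WT on EV. Its WT libraries on EV lay above all others, and those of lin-40(yth27) on EV lay between them and the groups on cco-1 RNAi, which overlapped. The difference in response was 1.12 ± 0.23 and passed with the block within WT (adjusted p = 0.0403 with edgeR). The genotype difference on EV was -0.88 (edgeR adjusted p = 0.0443), which passed in 3 of 12 fits with a library left out and reached an adjusted p of 0.206 without lin-40(yth27) EV replicate 1. noah-2 (WBGene00009926) had 378, 461 and 428 CPM in lin-40(yth27) upon cco-1 RNAi and 453, 471 and 441 CPM in lin-40(yth27) on EV, against 289, 286 and 404 CPM in WT upon cco-1 RNAi and 933, 602 and 936 CPM in WT on EV. It fell by 1.34 in WT (edgeR adjusted p = 0.00276), with a genotype difference of -0.86 on EV (edgeR adjusted p = 0.0831) and 0.37 on cco-1 RNAi. In all 3 genes the WT libraries upon cco-1 RNAi overlapped those of lin-40(yth27) upon cco-1 RNAi.

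These cuticle genes belong to the oscillating molting program. Over the list of 26 molting cycle genes the summed level was 3070 to 3940 CPM in lin-40(yth27) upon cco-1 RNAi, 3510 to 3940 CPM in lin-40(yth27) on EV, 2660 to 3440 CPM in WT upon cco-1 RNAi and 4430 to 6140 CPM in WT on EV. All 3 WT libraries on EV lay above every other library, and the part of larval timing within L4 in the cuticle values was not tested. Of the 25 molting genes tested, 11 (44%) had a positive difference at an unadjusted p under 0.05 and 0 a negative one, against 6.84% and 4.51% of all genes. On EV 12 of the 25 molting genes were placed, against 27.4% of all genes. In lin-40(yth27) 0 of them fell, against 0.336% of all genes, and in WT 11 fell, against 4.08% of all genes. lpr-3, another lipocalin-related protein, had 1.23 ± 0.28 and noah-1 had 0.91 ± 0.32, both placed on EV.

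Y46G5A.38 (WBGene00044043, chromosome II, 12827052 to 12827411) was the leading positive gene with responses of opposite sign and no overlap between the bacteria within either genotype. It had 7.89, 8.76 and 7.86 CPM in lin-40(yth27) upon cco-1 RNAi and 5.11, 4.53 and 3.38 CPM in lin-40(yth27) on EV, against 5.38, 4.55 and 5.44 CPM in WT upon cco-1 RNAi and 8.89, 6.67 and 6.28 CPM in WT on EV. Each lin-40(yth27) library on cco-1 RNAi lay above each on EV, and the WT groups lay the other way round. The responses were 0.91 in lin-40(yth27) (edgeR adjusted p = 0.0655) and -0.51 in WT (edgeR adjusted p = 0.18), and neither passed. The difference in response was 1.42 ± 0.29 (adjusted p = 0.0103 with DESeq2).

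**Figure D2:**
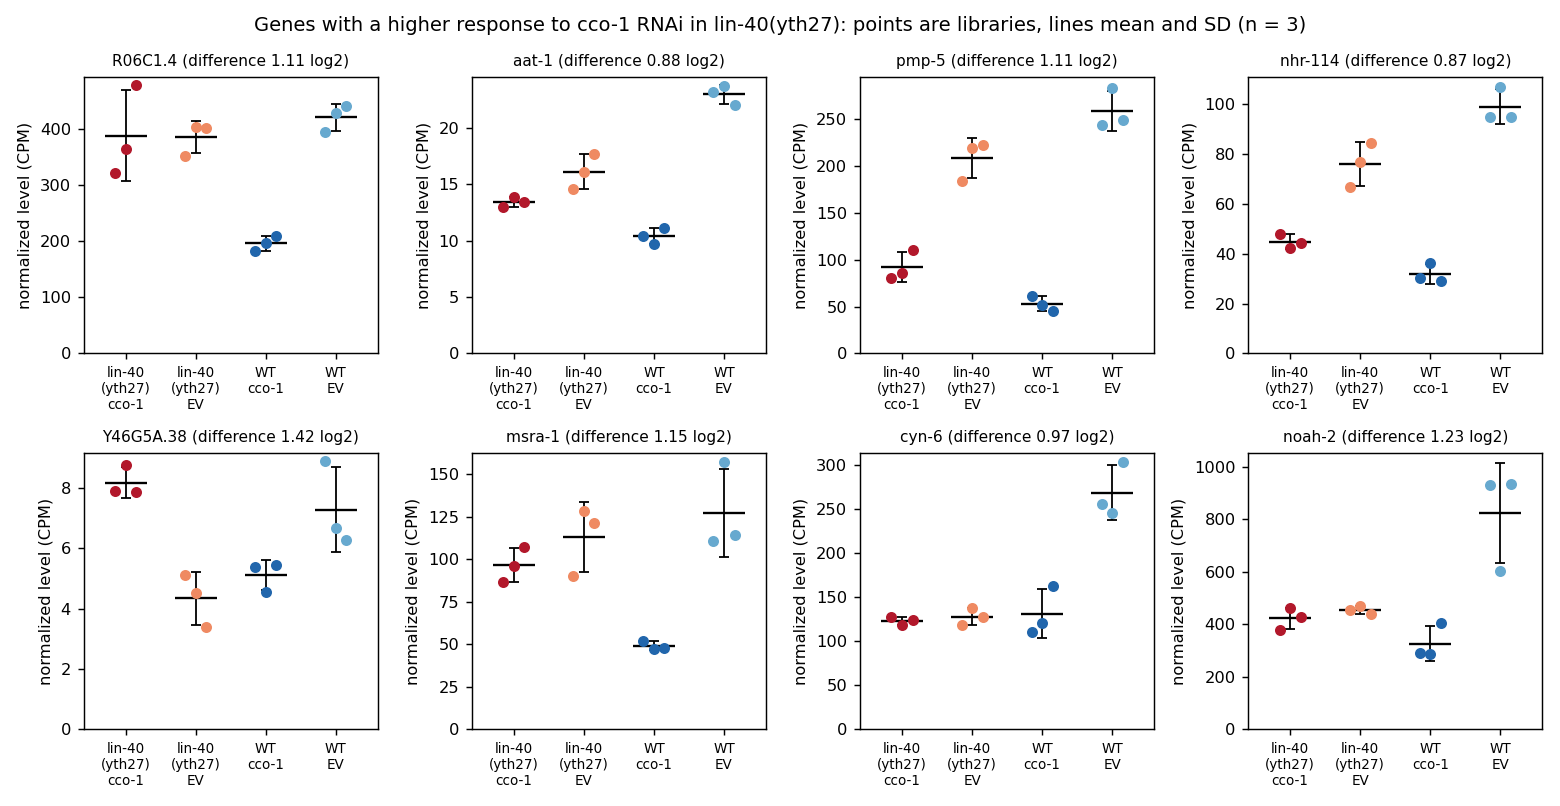
Expression (CPM, linear axis from 0) of 8 leading genes with a positive difference in response, in the 4 groups from left to right lin-40(yth27) cco-1, lin-40(yth27) EV, WT cco-1 and WT EV. Points are libraries, and lines give the mean and SD of 3. In each panel except that of Y46G5A.38, the step down between WT EV and WT cco-1 exceeds the step between the lin-40(yth27) groups.

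The 15 leading negative genes had differences in response between -2.62 and -0.72, with unadjusted p between 0.000148 and 0.002. They include regulators of RNA and chromatin, a trehalase, a phosphatase and a cation pump, besides genes without a name beyond their clone. In 15 of the 15 the lin-40(yth27) libraries on EV lay above all WT libraries on EV. On cco-1 RNAi the lin-40(yth27) libraries lay below those of WT in 5 genes, above in 1 and overlapped in 9. The WT response was called in 11 of the 15, upward in each, and that in lin-40(yth27) in 2. By placement, 6 of the 15 lay on EV, 1 on cco-1 RNAi and 8 on both. The genotype differences and the responses make up the difference by which these genes were picked. The counts of separated libraries, of calls and of placements therefore describe the pick and test nothing. No share of separated libraries over all genes is given here.

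T22B7.7 (WBGene00020674, chromosome X, 5651865 to 5654074) had the lowest p of all genes, and its difference came from EV. It gave 3.31, 4.12 and 2.66 CPM in lin-40(yth27) upon cco-1 RNAi and 7.64, 16 and 18.7 CPM in lin-40(yth27) on EV, against 1.97, 2.81 and 3.10 CPM in WT upon cco-1 RNAi and 1.58, 1.76 and 2.16 CPM in WT on EV. Only lin-40(yth27) on EV stood apart from the rest. On EV it was 2.96 higher in lin-40(yth27) (edgeR adjusted p = 0.0057), a call that held in 12 of 12 fits with a library left out, against 0.36 on cco-1 RNAi (edgeR adjusted p = 0.618). It fell by 2.08 in lin-40(yth27) (edgeR adjusted p = 0.016) and had 0.52 in WT (edgeR adjusted p = 0.432), a difference in response of -2.60 ± 0.47. The fall in lin-40(yth27) was lost without EV replicate 2 or 3 or cco-1 replicate 1 or 3 of that genotype, with adjusted p up to 0.0911.

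F15B9.6 (WBGene00008850, chromosome V, 13014144 to 13016641) also lay on EV but with another pattern. Its libraries gave 13.4, 9.41 and 9.25 CPM in lin-40(yth27) upon cco-1 RNAi and 8.38, 5.50 and 4.45 CPM in lin-40(yth27) on EV, against 4.19, 4.37 and 1.48 CPM in WT upon cco-1 RNAi and 0.281, 0.324 and 0.309 CPM in WT on EV. WT on EV was the lowest group by far, and the genotypes did not overlap on either kind of bacteria. It was 4.29 higher in lin-40(yth27) on EV (edgeR adjusted p = 0.00345, passing in 12 of 12 fits with a library left out) and 1.67 higher on cco-1 RNAi (edgeR adjusted p = 0.07). In WT it rose by 3.43 (edgeR adjusted p = 0.00227) and in lin-40(yth27) the value was 0.81 (edgeR adjusted p = 0.405), a difference in response of -2.62 ± 0.59.

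Further negative genes on EV were fcp-1, a homologue of the RNA polymerase CTD phosphatase, coel-1, mig-38 and Y54G2A.11. fcp-1 (WBGene00009479) had 5.07, 3.06 and 2.98 CPM in lin-40(yth27) upon cco-1 RNAi and 7.91, 4.87 and 7.04 CPM in lin-40(yth27) on EV, against 5.54, 6.33 and 4.09 CPM in WT upon cco-1 RNAi and 2.08, 1.94 and 2.88 CPM in WT on EV. The groups on cco-1 RNAi overlapped, and on EV they did not. Its genotype difference on EV of 1.52 did not pass (edgeR adjusted p = 0.0578), and the difference in response was -2.03 ± 0.42. coel-1 was 1.18 higher on EV in lin-40(yth27) (edgeR adjusted p = 0.0447, up to 0.193 without WT EV replicate 3, and passing in 2 of 12 fits), with -0.04 on cco-1 RNAi and a difference in response of -1.22 ± 0.30. Y54G2A.11 rose by 1.81 in WT (edgeR adjusted p = 0.00171) and had a difference in response of -1.27 ± 0.32. mig-38 gave 27.9, 24.2 and 20.1 CPM in lin-40(yth27) upon cco-1 RNAi and 37, 29.5 and 28.3 CPM in lin-40(yth27) on EV, against 30.8, 26.2 and 27.4 CPM in WT upon cco-1 RNAi and 18.5, 21 and 21.7 CPM in WT on EV. All its lin-40(yth27) libraries were lower on cco-1 RNAi and all its WT libraries higher, with a difference in response of -0.85 ± 0.21.

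znfx-1, a helicase of small RNA inheritance, was the leading negative gene placed on cco-1 RNAi. It had 36.1, 37.4 and 26.7 CPM in lin-40(yth27) upon cco-1 RNAi and 43.5, 43.7 and 43.4 CPM in lin-40(yth27) on EV, against 48.0, 47.5 and 50.7 CPM in WT upon cco-1 RNAi and 38.7, 34.3 and 38.7 CPM in WT on EV. The groups did not overlap within either genotype, and the order of the bacteria was reversed between the genotypes. The genotype difference was -0.55 on cco-1 RNAi (edgeR adjusted p = 0.0878) and 0.23 on EV (edgeR adjusted p = 0.43), and the difference in response was -0.77 ± 0.18 (adjusted p = 0.0458 with DESeq2).

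Among the negative genes placed on both were panl-2, a homologue of the PAN2 deadenylase that trims poly(A) tails, C49G7.10, the trehalase tre-2, pho-9 of the acid phosphatase family and egl-27. C49G7.10 (WBGene00016788, chromosome V, 4040409 to 4042021) had 10.5, 4.87 and 7.99 CPM in lin-40(yth27) upon cco-1 RNAi and 14.3, 8.98 and 8.11 CPM in lin-40(yth27) on EV, against 14.7, 14.2 and 15.2 CPM in WT upon cco-1 RNAi and 5.29, 5.14 and 5.10 CPM in WT on EV. It rose by 1.5 in WT (edgeR adjusted p = 0.00884), with -0.42 in lin-40(yth27) (edgeR adjusted p = 0.586) and a difference in response of -1.93 ± 0.38. The WT libraries were tight and apart from each other, and the lin-40(yth27) groups overlapped.

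panl-2 had 22.9, 20.9 and 16 CPM in lin-40(yth27) upon cco-1 RNAi and 23.3, 22.8 and 21 CPM in lin-40(yth27) on EV, against 30.5, 31.4 and 28.2 CPM in WT upon cco-1 RNAi and 18.7, 17.5 and 18.2 CPM in WT on EV. It rose by 0.73 in WT (edgeR adjusted p = 0.00932), the lin-40(yth27) groups overlapped, and the difference in response was -0.89 ± 0.19. tre-2 differed from the others in that it fell in lin-40(yth27), by 0.63 (edgeR adjusted p = 0.028), with 0.09 in WT (edgeR adjusted p = 0.707) and a difference in response of -0.72 ± 0.17. That call passed only in fits without a WT library, in 5 of 12, with an adjusted p of up to 0.163 without lin-40(yth27) EV replicate 3. egl-27, a paralogue of lin-40 of the MTA type, rose by 0.68 in WT (edgeR adjusted p = 0.0224, lost without cco-1 replicate 1 or 2 or EV replicate 1 or 3 of WT, with adjusted p up to 0.0922), with -0.16 in lin-40(yth27) and a difference in response of -0.84 ± 0.21.

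Of the 25 WT responses called among the 30 leading genes, 21 passed with each library left out in turn, and those of catp-3, egl-27, fcp-1 and pho-9 did not in at least 1 fit.

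**Figure D3:**
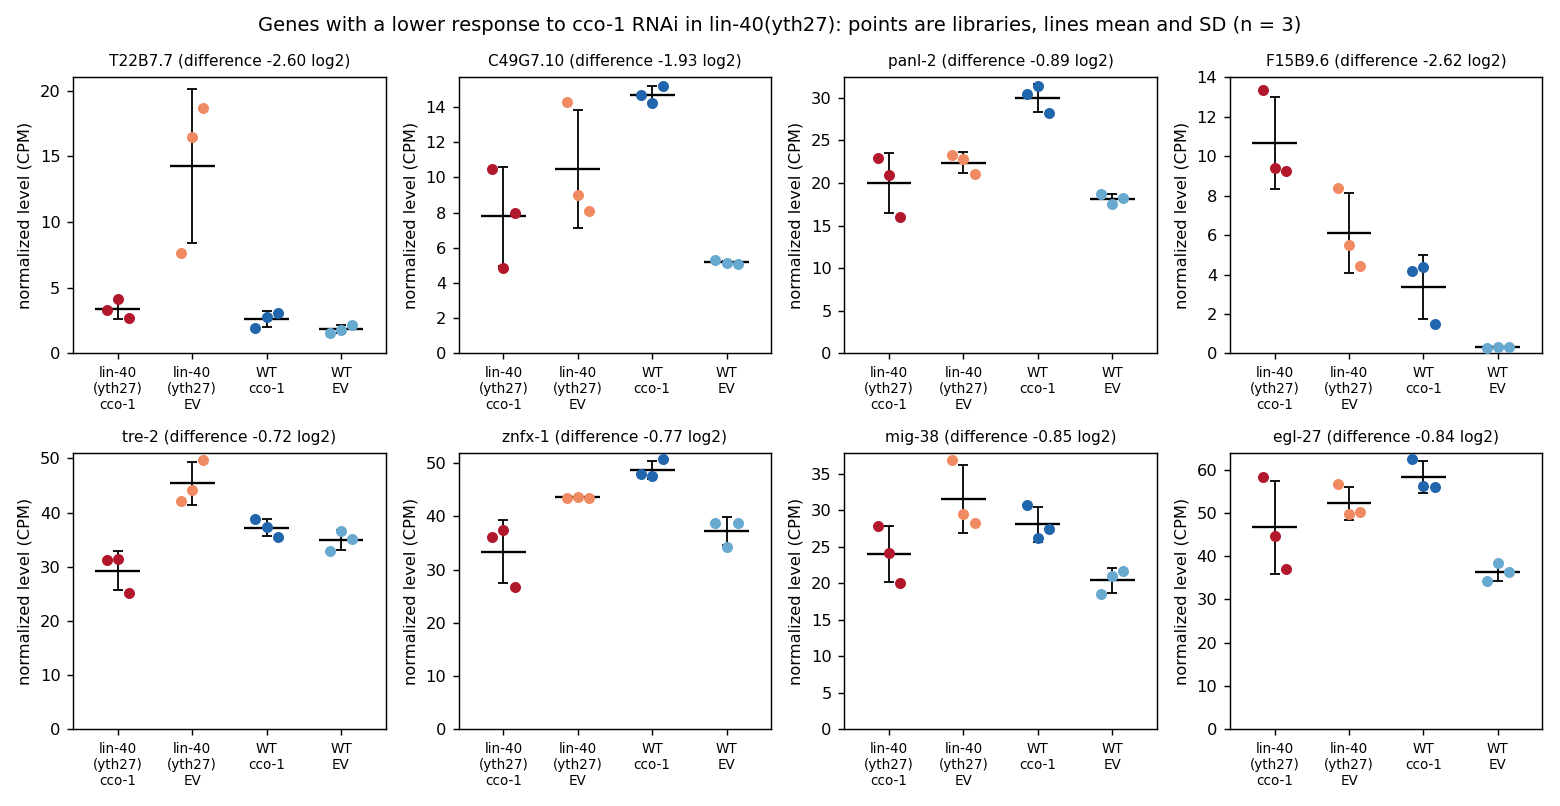
Expression (CPM, linear axis from 0) of 8 leading genes with a negative difference in response, in the 4 groups from left to right lin-40(yth27) cco-1, lin-40(yth27) EV, WT cco-1 and WT EV. Points are libraries, and lines give the mean and SD of 3. T22B7.7 is high only in lin-40(yth27) on EV, while F15B9.6 is lowest in WT on EV.

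The genes with the largest differences were less precisely measured. F44E5.4, an inducible heat shock protein of the HSP70 family, had the largest positive value among genes with an unadjusted p under 0.05 and a group mean of at least 5 CPM, 2.80 ± 1.23. It gave 47.7, 61.7 and 54 CPM in lin-40(yth27) upon cco-1 RNAi and 75.4, 33.5 and 40.8 CPM in lin-40(yth27) on EV, against 38.4, 133 and 25.6 CPM in WT upon cco-1 RNAi and 575, 25.5 and 655 CPM in WT on EV. WT EV replicates 1 and 3 were the high libraries, and WT EV replicate 2 was among the lowest. hsp-16.1, a small heat shock protein, had the same libraries high, with 524, 23.2 and 443 CPM in WT on EV. Over the list of small heat shock proteins and inducible HSP70, the median difference was 1.56 over 13 genes, with 8 placed on EV, 1 gene with an unadjusted p under 0.05, and 0.97 relative to all genes when the WT libraries with title number 1 were left out. The median was 2.69 without WT cco-1 replicate 2 and 2.49 without lin-40(yth27) EV replicate 1. Some of these genes are near-identical copies whose reads the counting may divide.

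asp-17, an aspartyl protease, and ins-35, an insulin-like peptide, were large positive genes placed on cco-1 RNAi. asp-17 had 1.85, 6.21 and 7.42 CPM in lin-40(yth27) upon cco-1 RNAi and 11.4, 11.3 and 10.7 CPM in lin-40(yth27) on EV, against 0.518, 0.223 and 0.494 CPM in WT upon cco-1 RNAi and 5.51, 1.81 and 3.55 CPM in WT on EV. It was higher in lin-40(yth27) upon cco-1 RNAi, by 3.63 (edgeR adjusted p = 0.031, up to 0.128 without WT cco-1 replicate 2, and passing in 5 of 12 fits), and by 1.62 on EV (edgeR adjusted p = 0.168), with a difference in response of 2.01 ± 0.74. ins-35 had 6.70, 12.5 and 14.8 CPM in lin-40(yth27) upon cco-1 RNAi and 9.49, 7.43 and 7.23 CPM in lin-40(yth27) on EV, against 1.14, 1.61 and 1.35 CPM in WT upon cco-1 RNAi and 2.25, 4.35 and 2.78 CPM in WT on EV. The genotypes did not overlap on either kind of bacteria. ins-35 was 3.04 higher in lin-40(yth27) upon cco-1 RNAi (edgeR adjusted p = 0.00479, passing in 12 of 12 fits) and 1.36 higher on EV (edgeR adjusted p = 0.0982), with a difference in response of 1.68 ± 0.46.

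At the negative end, pgp-5, a P-glycoprotein, had -2.72 ± 0.81 and tbh-1, the tyramine beta-hydroxylase of octopamine synthesis, had -2.47 ± 1.08. pgp-5 gave 9.96, 5.84 and 6.08 CPM in lin-40(yth27) upon cco-1 RNAi and 45.5, 12.29 and 9.64 CPM in lin-40(yth27) on EV, against 10.4, 8.74 and 12.58 CPM in WT upon cco-1 RNAi and 5.85, 1.94 and 7.0 CPM in WT on EV. lin-40(yth27) EV replicate 1 was its high library, as it was for ugt-31 and for F14F9.4, where it held 17.4 CPM against 3.69 and 2.41 CPM in the other replicates. tbh-1 gave 2.87, 3.57 and 2.66 CPM in lin-40(yth27) upon cco-1 RNAi and 12.65, 18.3 and 16.8 CPM in lin-40(yth27) on EV, against 1.03, 10.6 and 3.86 CPM in WT upon cco-1 RNAi and 0.731, 9.40 and 4.43 CPM in WT on EV. Its WT libraries followed their replicate number on both kinds of bacteria, with replicate 2 high and replicate 1 low, and its lin-40(yth27) groups did not overlap.

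That pattern is what the block within WT takes up, and tbh-1 was among the 7 genes that passed with it. The 4 positive ones were lpr-6, K08B12.1 (adjusted p = 0.0449), rml-3 (0.0449) and F57H12.6 (0.0281), and the 3 negative ones were tbh-1, catp-3 and col-101 (0.0281 each, all with edgeR). catp-3, a cation-transporting ATPase, had 51.8, 39.0 and 47.3 CPM in lin-40(yth27) upon cco-1 RNAi and 55.5, 37.9 and 41 CPM in lin-40(yth27) on EV, against 108, 48.5 and 63.5 CPM in WT upon cco-1 RNAi and 30.8, 16.9 and 17.9 CPM in WT on EV. In each WT replicate the level on cco-1 RNAi exceeded that on EV, while the lin-40(yth27) groups overlapped, and the difference in response was -1.71 ± 0.43. F57H12.6 gave 118, 94.9 and 96.8 CPM in lin-40(yth27) upon cco-1 RNAi and 106, 114 and 110 CPM in lin-40(yth27) on EV, against 29.7, 31.5 and 67.7 CPM in WT upon cco-1 RNAi and 83.9, 104.5 and 156 CPM in WT on EV. Its WT libraries were ordered by number alike on both kinds of bacteria, and its lin-40(yth27) groups overlapped. Of the 7 genes, DESeq2 and voom each called 4.

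Gene families were formed from symbols with the same letters before the hyphen, and 132 had at least 10 tested members. Against a median of -0.04 over all genes, the 5 families with the highest median difference in response were nspc (0.76), ins (0.60), rpl (0.57), rps (0.56) and spp (0.54), and the 5 lowest were msp (-0.66), ssp (-0.57), spe (-0.50), irld (-0.50) and ced (-0.48). No member of these families was called by edgeR or DESeq2. The 10 families were picked by these medians, which are thus a description. Over all genes tested, 7052 of 14867 had a positive difference. At an unadjusted p under 0.05, 6.84% were positive and 4.51% negative. By placement, 30.7% of all genes lay on cco-1 RNAi, 27.4% on EV and 42% on both. Counts of positive members of these families follow in part from the same pick.

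Ribosomal protein genes had small differences, nearly all positive. Among all 14867 genes, 7052 had a positive difference, 1017 of them at an unadjusted p under 0.05. Of the 47 rpl genes of the large subunit, 46 had a positive difference and 14 an unadjusted p under 0.05. Of the 31 rps genes of the small subunit, 31 were positive and 7 had such a p. Their median genotype difference was 0.43 on cco-1 RNAi for both families, against -0.14 for rpl and -0.11 for rps on EV. On cco-1 RNAi 36 of the 47 rpl genes and 25 of the 31 rps genes were placed, and on EV 1 and 0. Over all genes tested, 30.7% were placed on cco-1 RNAi and 27.4% on EV. rpl-28, with the lowest p of its family, had 858, 923 and 1594 CPM in lin-40(yth27) upon cco-1 RNAi and 795, 921 and 905 CPM in lin-40(yth27) on EV, against 791, 701 and 787 CPM in WT upon cco-1 RNAi and 977, 1001 and 977 CPM in WT on EV. lin-40(yth27) cco-1 replicate 3 was the high library. The rpl genes had a mean log2 deviation from their average over all libraries of -0.11, 0.08 and 0.69 in lin-40(yth27) upon cco-1 RNAi. In WT upon cco-1 RNAi it was -0.12, -0.27 and -0.07. The genotype difference on cco-1 RNAi thus leans on 1 library, and the placement without it is not given here. Without lin-40(yth27) cco-1 replicate 3 the median differences in response were 0.27 for rpl and 0.28 for rps. That library also had the lowest TMM factor of the 12, 0.796, and its part in these values was not tested. Relative to all genes, rpl stood at 0.60 with TMM and 0.55 with library totals. The nuclear genes for mitochondrial ribosomal proteins, 69 tested, had a smaller median of 0.35, with 20 positive and 0 negative genes at an unadjusted p under 0.05 and most placed on EV (28) or both (29).

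The nspc genes, a nematode-specific peptide family with near-identical copies, had a positive difference in 16 of 16 members, against 7052 of all 14867 genes. An unadjusted p under 0.05 was reached by 8 of them, against 6.84% of all genes on the positive side. The median genotype difference was 0.40 on cco-1 RNAi and -0.34 on EV. By edgeR's adjusted threshold 3 of the 16 rose in lin-40(yth27) and 3 fell in WT, against 123 and 606 of all 14867 genes. The median response was 0.84 in lin-40(yth27) and 0.05 in WT. nspc-9 and nspc-15 rose in lin-40(yth27), by 0.75 and 0.91 (edgeR adjusted p = 0.0267 and 0.0282). Their calls passed in 7 and 6 of the 12 fits with a library left out (adjusted p up to 0.132 and 0.135), and their WT values were 0.08 and 0.22. The 20 insulin-like ins genes were positive in 17 cases and placed on cco-1 RNAi in 9 (median 0.40 without replicate 3 of lin-40(yth27) cco-1), with ins-35, ins-24 (1.46 ± 0.53), ins-1 (1.04 ± 0.39) and ins-27 (0.74 ± 0.28) at an unadjusted p under 0.05. The saposin-like spp genes, which include antimicrobial peptides, were positive in 18 of 22 cases, with a median of 0.23 without replicate 3 of lin-40(yth27) cco-1. Among them, spp-23 had a genotype difference of -1.15 on EV (edgeR adjusted p = 0.00345, passing in 12 of 12 fits).

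The families at the negative end were mostly of sperm. The msp genes, for the major sperm proteins that drive crawling of nematode sperm, had a positive difference in 0 of 28 tested members and an unadjusted p under 0.05 in 0, and 18 were placed on EV, where their median genotype difference was 0.47. msp-76 gave 76.0, 46.3 and 73.6 CPM in lin-40(yth27) upon cco-1 RNAi and 49.6, 83.8 and 85.8 CPM in lin-40(yth27) on EV, against 15.3, 165 and 77.8 CPM in WT upon cco-1 RNAi and 12.8, 87.2 and 53.1 CPM in WT on EV. WT replicate 1 was the low library on both kinds of bacteria, so the groups overlapped throughout. Without WT cco-1 replicate 2 the msp median turned to 0.14, so its direction rests on that library, and without the other WT libraries of number 1 or 2 it lay between -1.21 and -0.23. The spe genes, named for sperm-defective mutants, had a positive difference in 2 of 28 cases, and 12 of them were placed on cco-1 RNAi. With a library left out their median lay between -0.98 (without WT EV replicate 2) and -0.19 (without WT EV replicate 1), and it also moved by more than 1.5 times without WT cco-1 replicate 1 (-0.90) or 2 (-0.24) or lin-40(yth27) cco-1 replicate 1 (-0.76). The ssp genes, for sperm-specific proteins related to msp, had a median genotype difference of 0.40 on EV, and relative to all genes their median difference in response turned to 0.14 without WT cco-1 replicate 2. The irld genes, for insulin receptor-like L-domain proteins, were placed on cco-1 RNAi in 6 of 11 cases, and no gene of theirs had an unadjusted p under 0.05. Their median lay between -1.05 (without replicate 1 of lin-40(yth27) cco-1) and -0.18 (without WT cco-1 replicate 3). Leaving out WT EV replicate 2 gave -0.92 and leaving out WT EV replicate 1 gave -0.27, while the same for WT cco-1 replicate 1 gave -0.80 and for its replicate 2 -0.27. Among the 12 ced genes, named for defects in programmed cell death and engulfment, ced-5 (-0.92 ± 0.30), ced-12 (-0.52 ± 0.21) and ced-4 (-0.48 ± 0.21) were negative and ced-10 (0.41 ± 0.18) positive at an unadjusted p under 0.05.

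**Figure D4:**
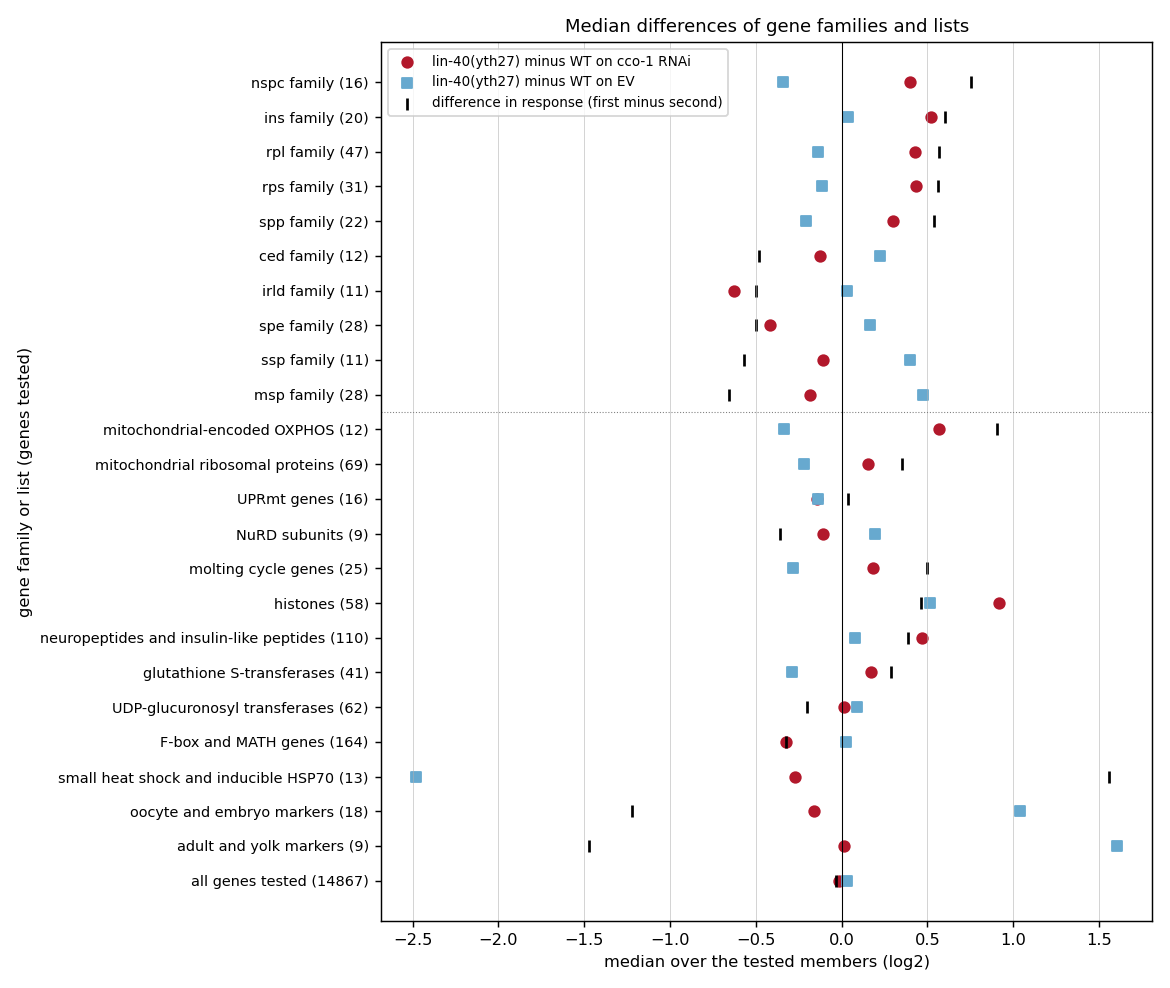
Median log2 values over the tested members of 10 gene families, 13 gene lists and all genes tested. Markers give the genotype difference (lin-40(yth27) minus WT) on cco-1 RNAi, that on EV, and the difference in response between the genotypes. The ribosomal families lie to the right of 0 on cco-1 RNAi and slightly to the left of it on EV, and the major sperm proteins lie to the right of 0 on EV.

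The genes encoded by the mitochondrial genome, which give subunits of the complexes that cco-1 knockdown disturbs, were positive in 11 of 12 cases. Among all 14867 genes, 7052 were positive. The median difference in response of the 12 mitochondrial-encoded genes was 0.91, and 9 of the 12 had an unadjusted p under 0.05, against 6.84% of all genes on the positive side. CYTB, the cytochrome b of complex III, gave 2062, 2620 and 3815 CPM in lin-40(yth27) upon cco-1 RNAi and 1987, 1869 and 1978 CPM in lin-40(yth27) on EV, against 1594, 1346 and 1904 CPM in WT upon cco-1 RNAi and 2828, 2177 and 2037 CPM in WT on EV. All its lin-40(yth27) libraries were higher on cco-1 RNAi than on EV and all its WT libraries lower. The responses were 0.54 in lin-40(yth27) and -0.54 in WT, neither of which passed (edgeR adjusted p = 0.352 and 0.186), and the difference in response was 1.08 ± 0.31. ND1, of complex I, had 700, 809 and 1118 CPM in lin-40(yth27) upon cco-1 RNAi and 565, 572 and 594 CPM in lin-40(yth27) on EV, against 601, 574 and 628 CPM in WT upon cco-1 RNAi and 842, 713 and 664 CPM in WT on EV. Its groups were apart within each genotype and the difference in response was 0.90 ± 0.23.

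COX1, the catalytic subunit of complex IV, had a smaller difference of 0.48 ± 0.29, and its mean was higher on cco-1 RNAi in both genotypes. It gave 4036, 4784 and 6662 CPM in lin-40(yth27) upon cco-1 RNAi and 2307, 2101 and 2140 CPM in lin-40(yth27) on EV, against 5148, 3934 and 4596 CPM in WT upon cco-1 RNAi and 3293, 2589 and 2206 CPM in WT on EV. It rose by 1.24 in lin-40(yth27) (edgeR adjusted p = 0.0187, lost when any library of that genotype on EV, or its cco-1 replicate 3, was left out, up to 0.108), and had 0.76 in WT (edgeR adjusted p = 0.0529). The 1 negative gene was ND4L, at -0.25 ± 0.91 and low counts. The differences of the 12 genes lay on cco-1 RNAi in 4 cases, on EV in 2 and on both in 6. lin-40(yth27) cco-1 replicate 3 was the highest library for CYTB, ND1 and COX1, and without it the median was 0.66. Relative to all genes the median was 0.94 with TMM and 0.89 with library totals. The RNA had been selected for poly(A) tails, and the part of that selection in these levels was not tested.

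**Figure D5:**
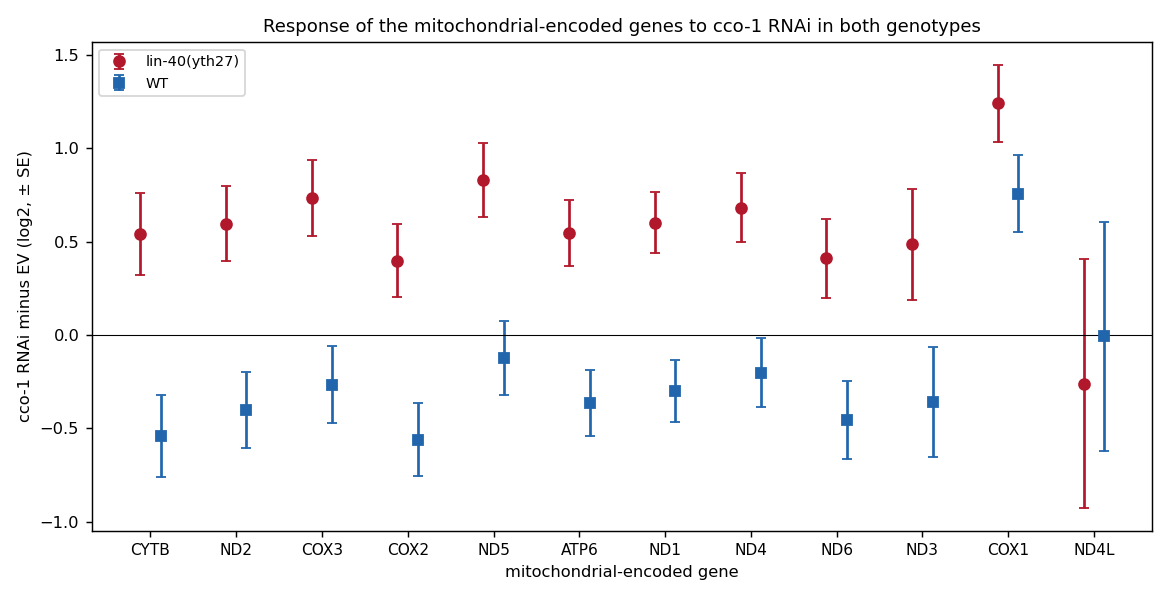
Log2 change upon cco-1 RNAi (cco-1 minus EV) of the 12 mitochondrial-encoded genes in lin-40(yth27) (red circles) and WT (blue squares), each with its SE from the edgeR model on 12 libraries. In 10 of the 12 genes the lin-40(yth27) value is above 0 and the WT value below 0, and COX1 is above 0 in both.

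UPRmt genes as a list did not share a direction. Over 16 genes the median difference in response was 0.04, between -0.02 and 0.17 with a library left out. At an unadjusted p under 0.05, 0 were positive and 2 negative (12.5%), against 6.84% and 4.51% of all genes. The negative ones were atfs-1, the transcription factor of the response, at -0.61 ± 0.17, and drp-1, the dynamin of mitochondrial fission, at -0.69 ± 0.26. atfs-1 had 82.7, 70.2 and 66 CPM in lin-40(yth27) upon cco-1 RNAi and 91.5, 80.4 and 86.2 CPM in lin-40(yth27) on EV, against 104.1, 89.4 and 94.8 CPM in WT upon cco-1 RNAi and 80.6, 71.1 and 71.7 CPM in WT on EV. Its WT groups did not overlap, with cco-1 RNAi higher, and its lin-40(yth27) groups did. drp-1 rose by 1.35 in WT (edgeR adjusted p = 0.00259) and had 0.66 in lin-40(yth27) (edgeR adjusted p = 0.157).

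The mitochondrial chaperones hsp-6 and hsp-60 had differences of 0.27 ± 0.29 and 0.46 ± 0.22. hsp-6 gave 1019, 1143 and 1166 CPM in lin-40(yth27) upon cco-1 RNAi and 793, 795 and 724 CPM in lin-40(yth27) on EV, against 1461, 1194 and 1097 CPM in WT upon cco-1 RNAi and 1436, 773 and 942 CPM in WT on EV. Its lin-40(yth27) groups did not overlap, and WT EV replicate 1 lay within the WT range on cco-1 RNAi. cyp-14A4, a cytochrome P450, rose most of the list, by 3.68 in lin-40(yth27) (edgeR adjusted p = 0.00687) and by 4.95 in WT (edgeR adjusted p = 0.000608), with a difference of -1.27 ± 0.67. Without lin-40(yth27) EV replicate 2 its call in lin-40(yth27) was lost (adjusted p = 0.0528). timm-23, of the inner membrane import channel, and gpd-2 also rose in lin-40(yth27), by 0.94 and 0.90 (edgeR adjusted p = 0.0187 and 0.0341, up to 0.108 without lin-40(yth27) EV replicate 3 for timm-23 and up to 0.173 for gpd-2).

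NuRD subunits had a median of -0.36 over 9 genes (-0.23 without WT EV replicate 2). At an unadjusted p under 0.05, 0 were positive and 2 negative (22.2%), against 6.84% and 4.51% of all genes. The 2 negative genes were egl-27, given above, and dcp-66, a p66-type subunit, at -0.61 ± 0.28. The remodeler let-418 had -0.38 ± 0.18, the deacetylase hda-1 had 0.01 ± 0.16 and lin-40 had 0.06 ± 0.28. Histone genes, 58 tested, had a median of 0.46, or 0.20 without replicate 3 of lin-40(yth27) cco-1, with 6 positive (10.3%) and 0 negative genes. They were higher in lin-40(yth27) upon cco-1 RNAi in 12 of the 58 cases and on EV in 3 by edgeR's adjusted threshold, against 0.498% and 0.202% of all genes, and his-8 was 1.35 higher on cco-1 RNAi (edgeR adjusted p = 0.043, passing in 1 of 12 fits and reaching 0.163). Since most histone messages lack a poly(A) tail and the genes are near-identical copies, their levels in poly(A)-selected RNA are uncertain.

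Genes for neuropeptides and insulin-like peptides had mostly positive differences, and more were placed on cco-1 RNAi than on EV. Of 110 tested, 96 had a positive difference, against 7052 of all 14867 genes, with 10 positive and 1 negative at an unadjusted p under 0.05. Their median was 0.39. On cco-1 RNAi 61 of the 110 were placed and on EV 15, against 30.7% and 27.4% of all genes. Their mean log2 deviation from their average over all libraries was 0.07, 0.28 and 0.70 in lin-40(yth27) upon cco-1 RNAi. In WT upon cco-1 RNAi it was 0.10, -0.25 and -0.12. The placement on cco-1 RNAi thus leans in part on lin-40(yth27) cco-1 replicate 3, and the placement without it is not given here. The 10 positive genes are 9.09% of the list, against 6.84% of all genes, and without replicate 3 of lin-40(yth27) cco-1 the median was 0.20. The median genotype difference was 0.47 on cco-1 RNAi and 0.08 on EV. nlp-40 (0.53 ± 0.17) and nlp-35 (0.95 ± 0.31) were among the 10. The neuron markers had a median of 0.15 over 12 genes, between 0.06 and 0.27 with a library left out.

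Lists of detoxification genes went different ways. Of 41 glutathione S-transferases, 10 were positive (24.4%, against 6.84% of all genes) and 0 negative at an unadjusted p under 0.05. In WT 7 of the 41 fell, against 4.08% of all genes. The median of the 41 was 0.29, or 0.19 without replicate 3 of lin-40(yth27) cco-1 and 0.43 without WT cco-1 replicate 1. gst-26 (0.79 ± 0.23), gst-5 (0.85 ± 0.29) and gst-12 (1.41 ± 0.48) were among the 10 positive genes. Of 62 UDP-glucuronosyl transferases, 2 were positive (3.23%) and 9 negative (14.5%, against 4.51% of all genes), with a median of -0.20, or -0.12 without replicate 3 of lin-40(yth27) cco-1 and -0.10 without WT EV replicate 2. Among these, ugt-54 had 2.25, 1.95 and 2.41 CPM in lin-40(yth27) upon cco-1 RNAi and 4.75, 3.40 and 3.62 CPM in lin-40(yth27) on EV, against 3.00, 3.30 and 2.69 CPM in WT upon cco-1 RNAi and 2.03, 1.39 and 1.60 CPM in WT on EV, and a difference of -1.68 ± 0.34. ugt-4 was 2.07 higher in lin-40(yth27) on EV (edgeR adjusted p = 0.0388, passing in 3 of 12 fits and reaching 0.172). Of 57 cytochrome P450 genes, 2 were positive (3.51%) and 3 negative (5.26%), with a median of -0.10, which lay between -0.21 and -0.01 with a library left out.

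Cuticle collagens, 149 tested, had a median of -0.03, between -0.20 and 0.28 with a library left out, with 15 positive (10.1%) and 1 negative gene. The hedgehog-related genes, which are tied to molting, had 0.26 over 42 genes (0.16 without WT EV replicate 2) with 5 positive (11.9%) and 0 negative. At an unadjusted p under 0.05, 6.84% of all genes were positive and 4.51% negative. Of the hedgehog-related genes, wrt-2, wrt-9, wrt-10 and wrt-1 had 0.97 ± 0.28, 0.70 ± 0.20, 1.01 ± 0.29 and 0.81 ± 0.34. Fatty acid genes had a median of 0.14 over 115 genes (0.26 without WT cco-1 replicate 1), with 13 positive (11.3%) and 1 negative, among them the acyl-CoA oxidase acox-1.2 (1.48 ± 0.43) and the lipid-binding protein lbp-8. lbp-8 was 1.72 higher in lin-40(yth27) upon cco-1 RNAi (edgeR adjusted p = 0.0227, passing in 7 of 12 fits and reaching 0.109). Digestive proteases were positive in 20 of 21 cases, against 7052 of all 14867 genes, with a median of 0.47 (0.26 without replicate 3 of lin-40(yth27) cco-1). Among them, asp-8 rose in both genotypes, by 1.70 in lin-40(yth27) (edgeR adjusted p = 0.00128) and by 1.19 in WT (edgeR adjusted p = 0.00272).

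Immune effectors, 73 tested, had a median of 0.33, or 0.19 without replicate 3 of lin-40(yth27) cco-1 and 0.52 without replicate 1 of that group, with 7 positive (9.59%) and 2 negative genes (2.74%). irg-8, an infection response gene, fell in both genotypes, by 1.10 in lin-40(yth27) (edgeR adjusted p = 0.028, up to 0.108 without lin-40(yth27) EV replicate 3) and fell by 2.37 in WT (edgeR adjusted p = 0.000214), a difference of 1.27 ± 0.29. C-type lectins had a median of 0.19 over 116 genes, between 0.11 and 0.36 with a library left out, with 9 positive (7.76%, near the 6.84% of all genes) and 2 negative, and pals genes had 0.02 over 14, with medians on either side of 0 when a library was left out. clec-47 was 1.58 higher in lin-40(yth27) on EV (edgeR adjusted p = 0.0102, up to 0.0824 without WT EV replicate 3) and clec-80 was 0.90 higher on cco-1 RNAi (edgeR adjusted p = 0.0403, up to 0.159 without replicate 3 of lin-40(yth27) cco-1). Nuclear hormone receptors had a median of -0.15 over 186 genes with 4 positive (2.15%) and 8 negative (4.30%), and F-box and MATH genes -0.32 over 164 with 2 positive (1.22%) and 9 negative (5.49%), so the negative shares stood near the 4.51% of all genes. The median of the receptors turned to 0.02 without WT cco-1 replicate 1, and that of the F-box and MATH genes lay between -0.49 and -0.21 with a library left out.

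The oocyte and embryo markers and the adult and yolk markers had large median differences and no gene with an unadjusted p under 0.05. The adult and yolk list holds the vit genes and the collagens col-19, col-7 and col-62. The 18 oocyte and embryo markers had a median of -1.22 with 15 placed on EV, and the 9 adult and yolk markers -1.47 with 9 placed on EV. Of all genes tested, 27.4% were placed on EV. The summed adult and yolk markers were 841 to 2660 CPM in lin-40(yth27) upon cco-1 RNAi and 6790 to 9510 CPM in lin-40(yth27) on EV, against 114 to 4120 CPM in WT upon cco-1 RNAi and 717 to 4230 CPM in WT on EV. lin-40(yth27) on EV lay above all other libraries, and the WT groups overlapped. Without WT cco-1 replicate 2 the medians were -0.29 for oocyte and embryo markers and -0.57 for adult and yolk markers. Without WT EV replicate 2 that of the oocyte and embryo markers was -1.90. The sperm markers had a median of -0.67 over 17 genes, -0.20 without WT cco-1 replicate 2, and between -1.10 and -0.30 without the other WT libraries of number 1 or 2. The 65 genes of the major sperm protein list, which also holds the nspc genes, had -0.60, and its 8 genes at an unadjusted p under 0.05 were all nspc genes. The remaining marker lists had medians of -0.06 for germline (16 genes, between -0.25 and 0.03 with a library left out), 0.25 for intestine (9, between 0.14 and 0.39), 0.32 for muscle (13, between 0.15 and 0.51) and 0.44 for hypodermis (10, with 3 positive and 1 negative).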

How the data were processed

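RNA from whole L4 animals was selected with oligo(dT) beads, made into TruSeq libraries and sequenced from both ends. Per the study's methods the authors trimmed reads with SeqPrep and Sickle, aligned them with TopHat keeping unique matches and quantified genes with RSEM. The table the authors deposited was read to hold expected counts per gene from RSEM, not normalized, because its values are mostly whole (19382 are not) and library totals differ. Not given in the sources used here are genome build, annotation and RSEM version. The kit as named does not mark strand, so overlapping and antisense genes cannot be told apart, and near-identical copies are uncertain.

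Expected counts were rounded. In R 4.3.3, genes kept by filterByExpr were scaled by TMM and fitted by edgeR 4.0.16 (quasi-likelihood) as 4 groups over 12 libraries without a block, and p-values were adjusted by Benjamini-Hochberg over the 14867 genes. The genotype differences, the responses and the difference in response come from this model, so they share libraries. CPM use TMM, and the biological coefficient of variation was 26.1%. Intervals and p-values beyond counting error rest on 3 libraries a group. DESeq2 1.42.0, limma 3.58.1 (voom with quality weights), other scalings and filters, replicate blocks and each library left out in turn were alternatives. Leaving out both WT libraries with title number 1 was chosen after seeing the data.

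Named are the 15 genes of lowest p in each direction with a group mean of at least 5 CPM, the 8 largest differences in each direction, the genes called with the block within WT, up to 4 genes of each of the 10 extreme families and of each list, and the mitochondrial-encoded, UPRmt and NuRD genes. Members, lists and tests were chosen with earlier results of these data known. Same-numbered WT libraries deviated together (correlations of 0.723, 0.588 and 0.288 across genes), while lin-40(yth27) libraries with the same title number did not (-0.324, -0.192 and -0.113), hence the block within WT. Of 46778 loci with a WormBase ID, 43818 matched a symbol. Positions are from the Ensembl release 115 annotation of WBcel235, matched by gene ID. 66 assembled loci were tested, and 0 columns belonged to other samples. Plots were drawn with matplotlib 3.10.9 in Python 3.11.15. The procedure was tested on simulated data.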

Additional observations from a re-analysis of the deposited data

Results flagged for a closer look

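In 3 of the leading genes the groups on EV and cco-1 RNAi did not overlap within either genotype, and their order was reversed between the genotypes. Libraries were not paired for this. The leading genes were picked by the p of the difference, which favours opposite responses, so this count describes the pick and tests nothing. No share of such genes over all genes tested is given here. The difference in response was 1.42 for Y46G5A.38, with responses of 0.91 in lin-40(yth27) and -0.51 in WT. It was -0.77 for znfx-1, with -0.38 in lin-40(yth27) and 0.39 in WT, and -0.85 for mig-38, with -0.39 in lin-40(yth27) and 0.46 in WT. None of these 6 responses passed edgeR's adjusted threshold, and the difference itself, tested as the interaction term, had an edgeR adjusted p of 0.388 in each of them.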

How the results depend on the processing

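Under edgeR 0 genes were called for the difference in response with scaling by median of ratios, upper quartile or library totals, with no filter on low counts or one of 10 CPM, with each library left out, and without both WT libraries of title number 1. DESeq2 called 58 and voom 256. The replicate block by title number called 1 gene, the block within WT 7, and the block by the number in the short names 1023, which left 3 residual degrees of freedom; the last included 15 and 14 of the leading positive and negative genes. The block by title number was not established by the check of pairs in lin-40(yth27).

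At an unadjusted p under 0.05, positive genes numbered 204 with library totals, 2238 with voom, 1913 with the short-name block and 575 to 1670 with a library left out. Negative genes numbered 1309 with library totals, 2301 with voom, 1377 with the title block, 2335 with the short-name block, 1423 with the block within WT, 1035 without both WT libraries of title number 1, and 440 to 1215 with a library left out. The other settings stayed within 1.5 times the counts given.

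The share of genes placed on EV was 37.4% and that on cco-1 RNAi 35.2% with a ratio of 1.5 in place of 2, and 20.0% and 17.3% with a ratio of 3. EV took 23.9% with library totals, 26.1% with a filter of 10 CPM and 24.1% with voom, where cco-1 RNAi took 41.6%. Without both WT libraries of title number 1 EV took 18.2% and cco-1 RNAi 42.1%. With a library left out EV took 15.2% to 42.3% and cco-1 RNAi 17.2% to 44.4%, so the order of the 2 shares is not settled. Placement was not recomputed with a block. No named gene's called difference was reversed under any setting run. With 3 libraries a group and a coefficient of variation of 26.1%, small differences in single genes were not detectable, and the cause of the changes between settings was not tested.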
